A study of Homo sapiens with 6 samples.

Results

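The LIN28, IGF2BP and HMGA genes, with IGF2, H19 and ARID3B, are genes of early development that are often active again in tumours. Members were taken by symbol: 10 named genes were looked up among the 62700 gene IDs of the count table, and all 10 were found. Of these, 8 passed the expression filter and 2 (LIN28A and H19) did not. RNA was sequenced from HEK293T cells, an established line from human embryonic kidney with the SV40 large T antigen. The 3 editor libraries came from cells given, by Lipofectamine 2000, a SpRY-ABE8e plasmid together with SA and SD guides at APP exon 17. The 3 GFP libraries came from cells given a GFP plasmid with the same reagent. SpRY-ABE8e is an adenine base editor, in which a near-PAMless Cas9 carries a deaminase for A-to-G changes. The GFP cells carried neither the editor nor the guides, so effects of the editor protein, the guides and the edit cannot be told apart. All libraries share the cell line and the transfection. The sample titles call the numbered libraries biological replicates. The labels call the cells epithelial. They do not say whether the line is 1 clone or how the replicate cultures were kept apart.

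In embryonic cells, LIN28A and LIN28B are RNA-binding proteins that hold back maturation of the let-7 microRNAs. Mature let-7 in turn represses mRNAs that carry matches to its seed in their 3' UTRs, among them LIN28B itself, HMGA2, IGF2BP1 and ARID3B in human cells. The IGF2BP proteins bind and stabilise mRNAs, IGF2 among them, the HMGA proteins bend AT-rich DNA through short AT-hooks, and IGF2 and H19 are neighbouring imprinted genes expressed from opposite parental copies. H19 is a non-coding RNA and IGF2 a growth factor of the fetus.

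The let-7 sequences are shown because their seed defines the matches counted in the members. The 12 let-7 and miR-98 genes listed in RefSeq (GRCh38.p14) gave mature forms that shared 1 seed, bases 2 to 8, in capitals. Each is 22 bases long.
hsa-let-7a-5p: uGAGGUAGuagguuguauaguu
hsa-let-7d-5p: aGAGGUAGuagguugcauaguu
hsa-let-7i-5p: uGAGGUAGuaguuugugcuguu
hsa-miR-98-5p: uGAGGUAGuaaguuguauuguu
Genes for let-7a lie on chromosomes 9, 11 and 22, for let-7d on 9, for let-7i on 12 and for miR-98 on X. The microRNAs themselves were not measured by these polyA-selected libraries, in which the 12 hairpin genes had 0 to 6 reads each.

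The reverse complement of that seed in DNA letters, CTACCTC, were counted on the sense strand of the longest annotated 3' UTR of each gene (GENCODE 29, GRCh38). A match is 7 letters, and 9.71% of 19080 coding genes held at least 1. IGF2BP1 held 4 in 6206 nt of 3' UTR and LIN28B 4 in 4549 nt. Among UTRs 0.8 to 1.25 times as long, 5 of 901 held as many as IGF2BP1 and 3 of 1565 as many as LIN28B, counting these genes themselves. LIN28A, IGF2BP2, IGF2BP3, HMGA1 and ARID3B held 1 each, where 16.8%, 11.4%, 12.2%, 8.54% and 12.6% of UTRs of like length held at least 1. IGF2 held 0, and H19 has no coding transcript. HMGA2 held 0 in its longest UTR (7421 nt), but 4 in the 3003 nt UTR of another of its 7 coding transcripts, a transcript choice made after seeing the data. With the longest coding sequence as the choice, LIN28B had 1 match and HMGA2 0. Over any coding transcript, 13 genes held 4 or more matches, and 3 of the 13 were members. A match is a stretch of letters, not a shown binding site.

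The sites are shown with up to 15 bases before the match, which is in capitals, for the members with several matches and for those of the IGF2BP family.
LIN28B, first match: acccggttgcaaagtCTACCTCa
LIN28B, second match: tactgatgatagtaaCTACCTCt
IGF2BP1, first match: tgtgtgcgaagtaaaCTACCTCa
IGF2BP1, second match: cagcagtgctagtaaCTACCTCa
IGF2BP2: aacacacagaagaagCTACCTCa
IGF2BP3: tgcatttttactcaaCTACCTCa
HMGA2, first match: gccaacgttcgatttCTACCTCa
HMGA2, second match: ccccactactcaataCTACCTCt
On GRCh38 these lie at chr6:105078812-105078834 and chr6:105081239-105081261 (LIN28B, plus strand), chr17:49051061-49051083 and chr17:49053698-49053720 (IGF2BP1, plus strand), chr3:185644220-185644242 (IGF2BP2, minus strand), chr7:23311795-23311817 (IGF2BP3, minus strand), and chr12:65963298-65963320 and chr12:65964533-65964555 (HMGA2, plus strand). All are in 3' UTRs. An A follows the match, the base that pairs opposite the first base of the microRNA in the strongest class of sites, in the IGF2BP2 and IGF2BP3 matches, in both IGF2BP1 matches shown and in the first match of LIN28B and of HMGA2.

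Depth ran from 110519197 to 152625595 counts in the editor libraries and from 124681733 to 128988337 in the GFP libraries. Editor libraries 2 and 3 stood apart from the rest: the SD of their log2 differences over genes was 0.27, against 0.36 to 0.53 for every other pair of libraries. Editor library 1 was nearest to GFP library 3 (0.39). Fits that leave out 1 library are therefore given beside the results. Of the markers listed for the labelled tissue, the epithelial keratins KRT8 and KRT18 and the nephron progenitor factor SIX2 were present (at least 1306, 5012 and 2355 reads in every library), whereas KRT19 had at most 1 read and SLC34A1, a transporter of the mature proximal tubule, 0 reads in every library. The neurofilament genes NEFL and NEFM stood at 165 and 237 CPM (read counts scaled to library size) in the editor libraries and at 171 and 261 CPM in GFP libraries. Of the 12 listed pluripotency genes, POU5F1, NANOG, PRDM14, ZFP42, DNMT3L and TDGF1 had at most 2 reads in any library, and DPPA4 at most 6. SOX2 had 2145 to 3002 reads and KLF4 2226 to 3117, DPPA2 and UTF1 had at least 101 and 116, and LEFTY1 had 6 to 27.

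Levels were compared between genes only per length, as RPKM (reads per kilobase of exon, scaled to library size as in CPM). HMGA1, the AT-hook protein gene on chromosome 6, stood highest, with 196 ± 17.7 RPKM in editor libraries and 205 ± 29.8 RPKM in the GFP libraries (SD, n = 3 each). It lay above 99.2% of 19646 tested genes with an annotated length, whose median was 2.07 RPKM in the GFP libraries. IGF2BP1 followed with 44.9 ± 0.429 RPKM in editor libraries and 47.4 ± 5.22 RPKM in the GFP libraries, and IGF2BP2 with 32.1 ± 1.5 and 33.9 ± 3.29 RPKM in the same order. LIN28B had 27.6 ± 9.06 RPKM in editor libraries and 25.1 ± 6.14 RPKM in the GFP libraries. Below these came IGF2BP3 (13.9 and 15.8 RPKM in the editor and GFP libraries), ARID3B (10.7 and 12.7 RPKM) and HMGA2 (9.09 and 8.74 RPKM). IGF2 stood at 1.28 ± 0.564 RPKM in editor libraries and 0.749 ± 0.189 RPKM in the GFP libraries, above 36.8% of tested genes.

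Over the 6 libraries the range of LIN28B overlapped that of IGF2BP2, the range of ARID3B overlapped those of IGF2BP3 and HMGA2, and the other neighbours in this order did not overlap, apart from LIN28A and H19 at the bottom. The order depends on the length used. With the longest annotated transcript, IGF2BP3 stood at 31.7 RPKM and HMGA2 at 16.6 RPKM in the GFP libraries, so that IGF2BP3 passed above LIN28B (27.3 RPKM) and HMGA2 came near ARID3B (18.4 RPKM). HMGA2 has 15403 nt of annotated exon but a longest transcript of 8094 nt. The files do not give the lengths the reads were counted over.

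**Figure D1:**
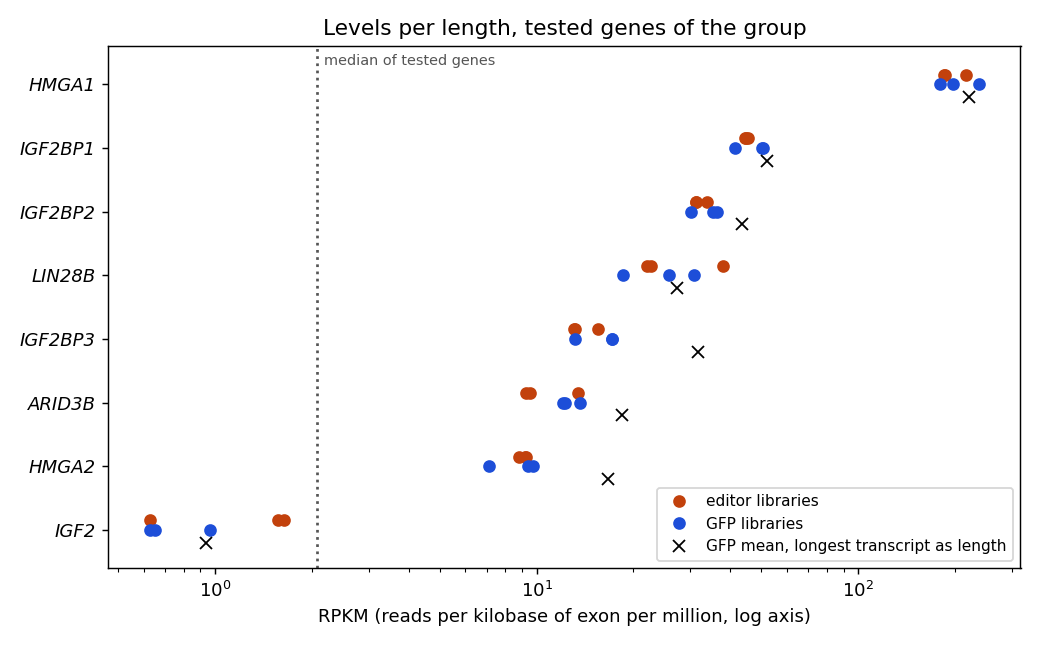
Levels per length of the 8 tested genes in RPKM (log axis), with editor libraries above GFP libraries for each gene and crosses for the GFP mean when the longest transcript sets the length. HMGA1 lies between 179 and 237 RPKM in all 6 libraries, and IGF2 below the dotted median of 2.07 RPKM in each.

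Of the let-7 antagonists, LIN28B (ENSG00000187772.8, chromosome 6, 104936616 to 105083332, plus strand) carried nearly all reads. It had 228, 136 and 132 CPM in editor libraries 1, 2 and 3, against 112, 155 and 185 CPM in GFP libraries 1, 2 and 3. Editor library 1 was the highest and GFP library 1 the lowest of the 6, and the groups overlapped. On the log2 scale the difference was 0.14 (95% interval -0.42 to 0.69, SE 0.25; adjusted p = 0.903 by edgeR). It was -0.19 without editor library 1 and -0.05 without GFP library 1, so its direction rests on those libraries, and it reached 0.30 without GFP library 3. LIN28A (ENSG00000131914.11, chromosome 1, 26410778 to 26429722, plus strand) had 0, 0 and 2 reads in editor libraries, against 2, 3 and 1 reads in GFP libraries. Its summed level was 0.00505 CPM in the editor libraries (exact Poisson 95% interval 0.000612 to 0.0182, for counting error only) and 0.0160 CPM in GFP libraries (0.00587 to 0.0348). Both sums lay below the level of 3 counts in a library (0.0188 to 0.0281 CPM). It did not pass the filter and was not tested.

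The IGF2BP genes, which encode mRNA-binding proteins of the oncofetal type, varied alike over the libraries. IGF2BP1 (ENSG00000159217.10, chromosome 17, 48997412 to 49055650, plus strand) had 413, 406 and 407 CPM in editor libraries 1, 2 and 3, against 377, 460 and 457 CPM in GFP libraries 1, 2 and 3. The editor libraries were close together, and the GFP libraries lay on both sides of them. Its log2 fold change was -0.08 (95% interval -0.34 to 0.18, SE 0.11; adjusted p = 0.877 by edgeR), with -0.18 without GFP library 1 (adjusted p = 0.415) and -0.03 without GFP library 2. IGF2BP2 (ENSG00000073792.16, chromosome 3, 185643739 to 185825056, minus strand), the member of the family that stays active in adult tissues, had 160, 148 and 148 CPM in editor libraries, against 143, 172 and 168 CPM in GFP libraries. Again GFP library 1 was the lowest and the other 2 GFP libraries the highest. On the log2 scale the difference was -0.08 (95% interval -0.33 to 0.17, SE 0.11; adjusted p = 0.874 by edgeR). Leaving out GFP library 1 gave -0.17, editor library 1 gave -0.14 and GFP library 2 gave -0.03.

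IGF2BP3 (ENSG00000136231.14, chromosome 7, 23310209 to 23470467, minus strand) had 133, 112 and 111 CPM in editor libraries, against 112, 146 and 146 CPM in GFP libraries. Editor libraries 2 and 3 and GFP library 1 were alike and low, whereas GFP libraries 2 and 3 were high. The log2 fold change was -0.18 (95% interval -0.50 to 0.13, SE 0.14; adjusted p = 0.729 by edgeR). It was -0.32 without GFP library 1, -0.29 without editor library 1 and -0.12 without GFP library 2. Exons of MALSU1, a mitochondrial ribosome assembly gene, overlap IGF2BP3 on the other strand (17151 reads for MALSU1 over the 6 libraries), and the strand setting of the counting is not given in the sources used here.

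IGF2BP1 made up 49.4 ± 1.32% of the summed level per length of the IGF2BP genes in the editor libraries and 48.8 ± 0.143% in the GFP libraries (SD, n = 3 each). IGF2BP2 made up 35.3 ± 0.35% and 35.0 ± 0.611% in the same order. IGF2BP3 made up 16.4%, 14.8% and 14.7% in editor libraries 1, 2 and 3, against 15.5%, 16.5% and 16.7% in GFP libraries 1, 2 and 3. None of these shares differed beyond the spread between libraries (2-sided exact permutation p of 0.4, 0.4 and 0.2 for IGF2BP1, IGF2BP2 and IGF2BP3). With 3 against 3 libraries that test cannot go below 0.1, and the shares were chosen after the values were seen.

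The 2 HMGA genes did not follow each other. HMGA1 (ENSG00000137309.21, chromosome 6, 34236873 to 34246231, plus strand) had 503, 433 and 431 CPM in editor libraries 1, 2 and 3, against 553, 418 and 458 CPM in GFP libraries. GFP library 1 was the highest and GFP library 2 the lowest. HMGA2 (ENSG00000149948.14, chromosome 12, 65824131 to 65966295, plus strand) had 135, 142 and 143 CPM in editor libraries, against 109, 150 and 145 CPM in GFP libraries. Here GFP library 1 was the lowest and GFP library 2 the highest.

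The log2 fold change was -0.06 for HMGA1 (95% interval -0.37 to 0.24, SE 0.13; adjusted p = 0.919 by edgeR). It was 0.06 for HMGA2 (95% interval -0.25 to 0.36, SE 0.13; adjusted p = 0.929 by edgeR). Without GFP library 1 the values were 0.04 for HMGA1 and -0.09 for HMGA2, the opposite signs. HMGA1 was at -0.16 without editor library 1 and HMGA2 at 0.14 without GFP library 2. The log2 ratio of HMGA2 to HMGA1 in CPM was -1.89, -1.61 and -1.59 in editor libraries 1, 2 and 3, against -2.34, -1.48 and -1.66 in GFP libraries 1, 2 and 3. The groups overlapped in this ratio (2-sided exact permutation p = 0.8). Adjusted over the 3 shares above and this ratio, 4 comparisons in all, the p-values were at least 0.533. The 8 annotated HMGA1 pseudogenes together had 1.34% to 1.61% as many reads as HMGA1. How reads that match both were assigned is not given, so this share does not bound them.

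**Figure D2:**
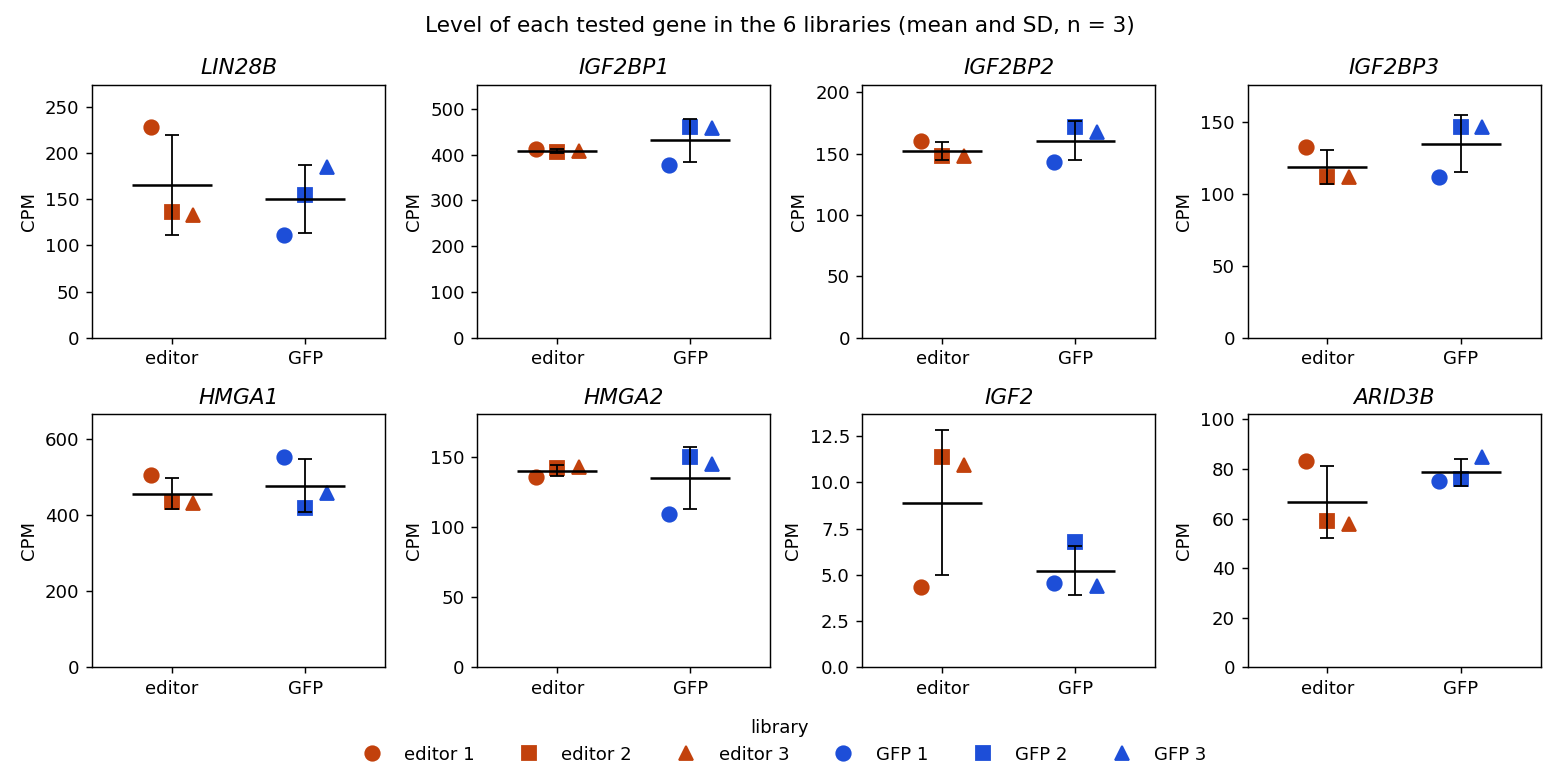
CPM of the 8 tested genes in the 3 editor libraries (left in each panel) and the 3 GFP libraries (right), with bars for the mean and SD. Every gene's groups overlap, LIN28B spans 112 to 228 CPM, and IGF2 is high in editor libraries 2 and 3 only.

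IGF2 (ENSG00000167244.22, chromosome 11, 2129112 to 2149603, minus strand), the growth factor, differed most between libraries. It had 466, 1482 and 1747 reads in editor libraries 1, 2 and 3, against 591, 842 and 529 reads in the GFP libraries. These are 4.37, 11.4 and 11.0 CPM in editor libraries, against 4.55, 6.75 and 4.39 CPM in GFP libraries. Editor libraries 2 and 3, the alike pair, lay above all GFP libraries, and editor library 1 lay below them all.

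The log2 fold change of IGF2 was 0.77 (95% interval 0.01 to 1.53, SE 0.34; unadjusted p = 0.0484, adjusted p = 0.572 by edgeR), so IGF2 did not pass over all genes. It was 1.08 without editor library 1 (adjusted p = 0.0502) and 0.56 or 0.59 with editor library 2 or 3 left out (adjusted p = 0.999 for both). With no low-count filter it passed (log2 fold change 0.71, adjusted p = 0.00495 by edgeR). That fit gave IGF2 an SE of 0.17, against 0.34 in the main fit, though the values of the libraries are the same. It called 178 genes higher and 129 lower, against 5 and 0 in the main fit. The authors' deposited table gives 0.71 for IGF2 with an adjusted p of 0.709. In bulk RNA, more cells that express a gene and more RNA per cell cannot be told apart. INS-IGF2, a readthrough gene whose exons overlap IGF2 on the same strand, had 0 reads in total, and IGF2-AS on the other strand had 191, and how reads in shared exons were assigned is not given.

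H19 (ENSG00000130600.22, chromosome 11, 1995176 to 2001470, minus strand), the imprinted neighbour, had 1, 4 and 5 reads in the editor libraries, against 0, 5 and 3 reads in the GFP libraries. The summed level was 0.0253 CPM in the editor libraries (exact Poisson 95% interval 0.0121 to 0.0464) and 0.0213 CPM in GFP libraries (0.00921 to 0.0420). In GFP library 1, which had 0 reads, the level of 3 counts is 0.0231 CPM, which is not a Poisson interval. IGF2 was thus counted at 3695 reads in the editor libraries and 1962 in the GFP libraries, against 10 and 8 for H19 in the same order.

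ARID3B (ENSG00000179361.18, chromosome 15, 74541177 to 74598131, plus strand), an AT-rich DNA-binding protein, had 83.3, 59.0 and 57.6 CPM in editor libraries 1, 2 and 3, against 75.1, 75.9 and 85.0 CPM in GFP libraries. Editor libraries 2 and 3 were lower than all others, and editor library 1 lay among the GFP libraries. On the log2 scale the difference was -0.24 (95% interval -0.59 to 0.11, SE 0.15; adjusted p = 0.679 by edgeR). It was -0.45 without editor library 1 (adjusted p = 0.0724), and -0.16 or -0.14 with editor library 2 or 3 left out. The pseudogene ARID3BP1 had 3.47% to 4.16% as many reads as ARID3B.

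Among the 8 tested members, 0 passed the threshold of an adjusted p of 0.05 in the edgeR fit, where 5 of 20511 genes (0.0244%) did. At an unadjusted p under 0.05 there was 1 member, IGF2, beside 8.68% of all tested genes. No member had groups that did not overlap, beside 14.8% of all genes. DESeq2 and limma-voom also called 0 members. Of the tested members, 3 had a log2 fold change above 0 (LIN28B, HMGA2 and IGF2), beside 54.3% of all genes. The 95% intervals, as a ratio of the editor to the GFP level, were 0.792 to 1.13 for IGF2BP1, 0.794 to 1.13 for IGF2BP2, 0.708 to 1.09 for IGF2BP3, 0.775 to 1.18 for HMGA1, 0.841 to 1.28 for HMGA2, 0.665 to 1.08 for ARID3B and 0.748 to 1.62 for LIN28B. For IGF2 the interval reached 2.90. Genes simulated with a log2 change of 1 in a 3 against 3 comparison were recovered in 57.1% of cases by edgeR, and with a log2 change of 0.5 in 12.2%. That simulation gave 142 calls by edgeR, which eases the adjusted threshold, against 5 in the data. It also drew all libraries independently, whereas editor libraries 2 and 3 were nearly alike. These shares may therefore overstate the recovery for the members.

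**Figure D3:**
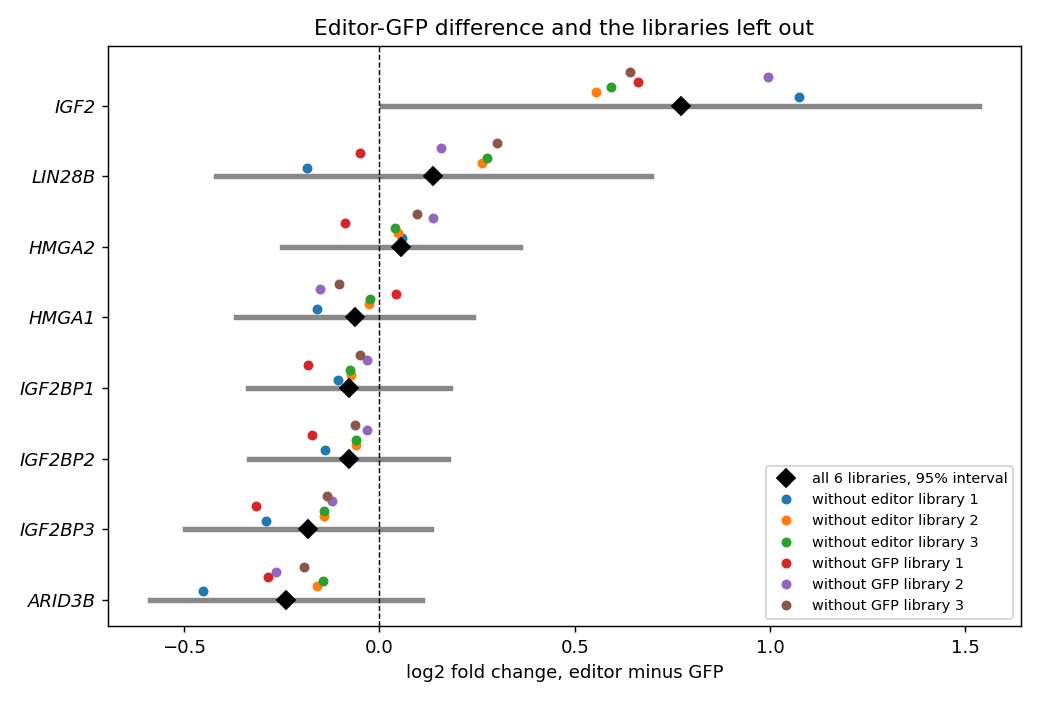
Log2 fold change (editor minus GFP) of each tested gene, with diamonds and grey bars for all 6 libraries and the 95% interval and dots for fits without 1 library. IGF2 lies highest (0.77) with values from 0.56 to 1.08 over the libraries left out, and LIN28B, HMGA1 and HMGA2 change sign.

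Seen by library rather than by group, GFP library 1 held the lowest value of 4 of the 8 tested members (LIN28B, IGF2BP1, IGF2BP2 and HMGA2) and the highest of HMGA1. Of all tested genes, 27.0% had their lowest value there and 23.2% their highest, the largest such shares of the 6 libraries. GFP library 2 held the highest value of IGF2BP1, IGF2BP2, IGF2BP3 and HMGA2, beside 15.1% of all genes. Editor library 1 held the lowest IGF2 and the highest LIN28B. The editor libraries 2 and 3 paired high IGF2 with low ARID3B.

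**Figure D4:**
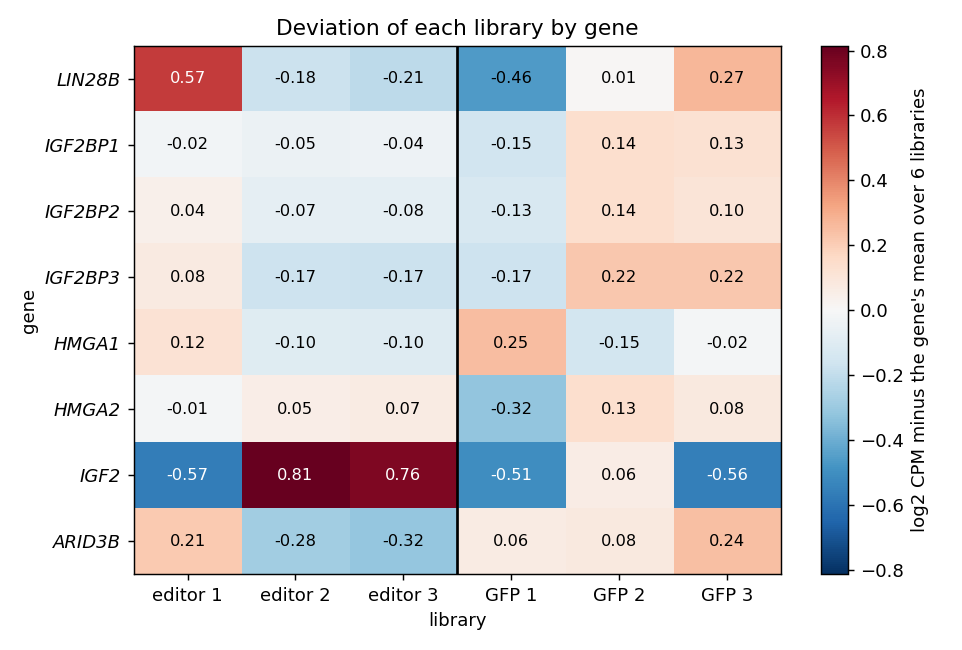
Log2 CPM of each tested gene in each library minus the gene's mean over the 6 libraries, editor libraries left of the line. IGF2 reaches 0.81 in editor library 2 and LIN28B 0.57 in editor library 1, while the IGF2BP genes stay within 0.22 of their means.

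The genes most like LIN28B over the 6 libraries, by Pearson's r of log2 CPM among 12500 genes with a mean log2 CPM of at least 1, were POLR2A (r = 0.999), CD46, NRP2, ZFP91 and FANCM (r = 0.997 each). POLR2A, the largest subunit of RNA polymerase II, had 452, 309 and 298 CPM in editor libraries, against 268, 338 and 383 CPM in GFP libraries, the same order of libraries as LIN28B. The 6 points share 2 groups and 1 pair of libraries that were nearly alike, and r over so few points is a description only.

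The wider pathway was described by gene lists, beside a median log2 fold change of 0.02 over all 20511 genes, and 0 of their members passed over all genes by edgeR. Of 22 genes that process let-7 or work with LIN28, 21 were tested, 8 above 0 and 13 below, with a median of -0.02. That median ran from -0.11 without GFP library 1 to 0.02 without editor library 3, so it has no settled sign. DGCR8, the partner of DROSHA in cutting primary microRNAs, had 14.0, 19.4 and 20.2 CPM in editor libraries, against 11.4, 11.0 and 10.6 CPM in GFP libraries. Every editor library lay above every GFP library, with editor library 1 the nearest to them. DGCR8 was named for its small p, and groups did not overlap in 14.8% of all tested genes. The log2 fold change of DGCR8 was 0.70 (SE 0.15, adjusted p = 0.4 by edgeR), and it passed in 3 of the alternatives. DESeq2 gave 0.67 (adjusted p = 0.0229), the edgeR fit of unfiltered genes 0.64 (adjusted p = 0.00405) and the edgeR fit leaving out editor library 1 gave 0.83 (adjusted p = 0.0352). Those fits called far more genes than the main fit (5 higher, 0 lower). They called 47 higher and 32 lower by DESeq2, 178 and 129 unfiltered, and 159 and 54 without editor library 1. PRKRA, a partner of the let-7 processing enzyme DICER1, stood at -0.24 on the log2 scale (SE 0.10, adjusted p = 0.569).

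All 32 listed let-7 target mRNAs beyond the members were tested, 16 above 0 and 16 below, with a median of 0.00. Without editor library 1 or GFP library 1 that median was -0.10, and without GFP library 2 it was 0.07. MYCN, a MYC family transcription factor, had 4.73 ± 0.409 CPM in editor libraries, against 3.70 ± 0.489 CPM in GFP libraries (SD, n = 3 each; log2 fold change 0.35, adjusted p = 0.569 by edgeR). The G1 cyclin CCND1 had 63.5 ± 5.61 CPM in editor libraries, against 54.0 ± 4.57 CPM in GFP libraries (log2 fold change 0.23, adjusted p = 0.602, and 0.14 without editor library 1). MYC itself stood at 0.26 and the cell cycle factor E2F5 at -0.15 on the log2 scale.

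Sorted by seed matches in the longest 3' UTR, the tested genes had medians near that of all genes. The classes hold only coding genes with an annotated 3' UTR, whereas the median of all genes also covers the other tested genes. The median log2 fold change was 0.00 for 12634 genes with no match, 0.01 for 1404 with 1, 0.04 for 160 with 2 and 0.02 for 31 with 3 or more. Over the libraries left out, the median for genes with 2 matches ran from -0.04 to 0.08 and that for genes with no match from -0.04 to 0.01. It ran from -0.04 to 0.04 for genes with 1 match and from -0.08 to 0.03 for those with 3 or more. TRIM71, an embryonic ubiquitin ligase gene with 6 matches, the most of any gene, had 23.5 CPM in editor libraries, against 23.2 CPM in GFP libraries (log2 fold change 0.02, adjusted p = 0.975 by edgeR). All 13 genes with 4 or more matches in some coding transcript were tested, and 0 passed. The members with 4 matches in some coding transcript, LIN28B, IGF2BP1 and HMGA2, stood at 0.14, -0.08 and 0.06. By its longest 3' UTR, HMGA2 held 0 matches and lies in the class with no match above.

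**Figure D5:**
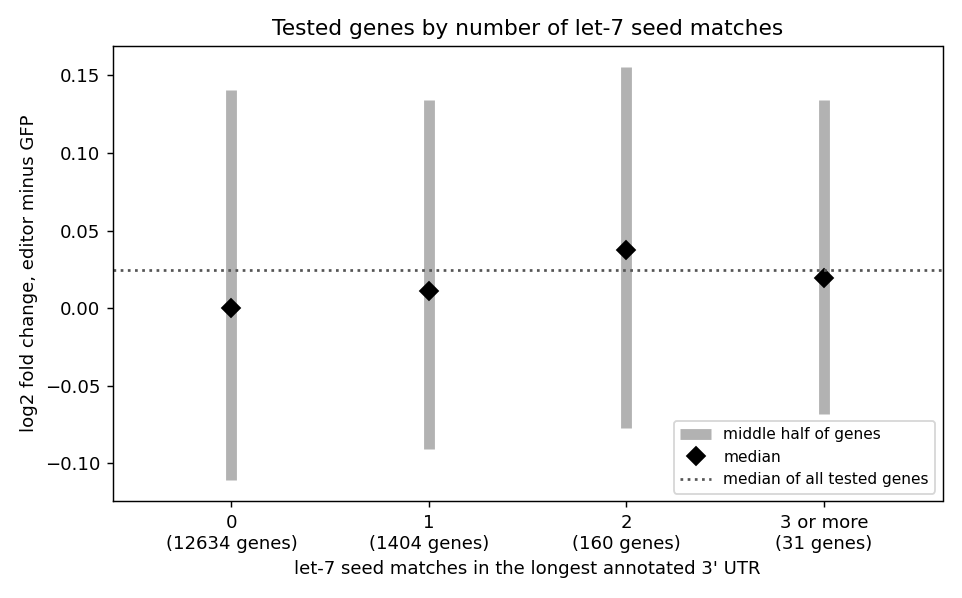
Log2 fold change (editor minus GFP) of tested genes by the number of let-7 seed matches in the longest annotated 3' UTR, with diamonds for the median and bars from the lower to the upper quartile. The medians lie between 0.00 and 0.04 in all 4 classes, beside 0.02 for all tested genes (dotted). The dotted value also covers tested genes without an annotated coding 3' UTR, which are in no class.

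On the IGF side, 19 of 23 listed genes were tested, 9 above 0 and 10 below, with a median of -0.04 (-0.09 without GFP library 1 and 0.00 without editor library 1). IGF1, INS, IGFBP1 and IGFALS did not pass the filter. IGFBP3, a binding protein that holds IGFs in the circulation, had 0.844, 1.24 and 1.83 CPM in editor libraries, against 1.54, 2.13 and 2.12 CPM in GFP libraries, groups that overlapped (log2 fold change -0.55, SE 0.28, adjusted p = 0.609 by edgeR). It was -0.35 without editor library 1 and -0.89 without editor library 3. The kinase gene AKT1, downstream of the IGF receptor, stood at -0.17 (SE 0.11, adjusted p = 0.682). Of 26 other imprinted genes 15 were tested, 7 above 0 and 8 below, with a median of -0.04 (-0.07 without editor library 2 and 0.01 without GFP library 1). MAGEL2 of the Prader-Willi region stood at -0.67 (SE 0.23, adjusted p = 0.519) at 0.763 and 1.21 CPM in the editor and GFP libraries, and SGCE at -0.20 (SE 0.11, and -0.31 without editor library 1).

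Of 19 listed mRNAs that IGF2BP proteins are known to bind, all were tested, 9 above 0 and 10 below, with a median of -0.04. The median was -0.11 without GFP library 1 and 0.08 without GFP library 2, so its sign depends on single libraries. Changes of single genes in this list ran from -0.98 to 0.56. Its summed level ran from 5021 to 5293 CPM in editor libraries and from 5439 to 5573 CPM in GFP libraries, ranges that did not overlap. ABCB1, a drug efflux pump gene, had 27.1, 24.2 and 23.9 CPM in editor libraries, against 14.3, 18.0 and 18.9 CPM in GFP libraries. The groups did not overlap, as in 14.8% of all tested genes, and ABCB1 did not pass (log2 fold change 0.56, SE 0.13, adjusted p = 0.451 by edgeR). GLI1, a hedgehog pathway transcription factor, stood at 0.44 (SE 0.14, adjusted p = 0.506). The 19 genes that write, erase or read m6A, the RNA mark that IGF2BP proteins recognise, were all tested, 8 above 0 and 11 below, with a median of -0.01 (-0.19 without editor library 1 and 0.05 without editor library 2). The writer subunit VIRMA stood at -0.31 (SE 0.14) and the eraser ALKBH5 at -0.23 (SE 0.13, and -0.39 without editor library 1).

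Of 13 other HMG genes 12 were tested, 5 above 0 and 7 below, with a median of -0.04 (-0.17 without editor library 1 and 0.01 without editor library 2). HMGN5, a nucleosome-binding protein gene, stood at 0.34 (SE 0.13, adjusted p = 0.547, and 0.20 without GFP library 2) and HMGXB4 at -0.23 (SE 0.10, adjusted p = 0.578). All 13 genes of the ARID family beyond ARID3B were tested, 7 above 0 and 6 below, with a median of 0.01 (-0.12 without editor library 1 and 0.08 without GFP library 3). ARID3C, the close relative of ARID3B, stood at 0.54 (SE 0.23, adjusted p = 0.569) at 1.17 and 0.806 CPM in the editor and GFP libraries.

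Of 17 other oncofetal genes 9 were tested, 5 above 0 and 4 below, with a median of 0.05 (-0.03 without editor library 1 and 0.08 without GFP library 3). SALL4, an embryonic zinc finger factor, had 5.46 ± 0.249 CPM in editor libraries, against 4.87 ± 0.24 CPM in GFP libraries (SD, n = 3 each; log2 fold change 0.17, adjusted p = 0.723 by edgeR). CLDN6, a tight junction gene of embryonic epithelium, stood at 0.32 (SE 0.19, adjusted p = 0.657, and 0.18 without GFP library 2). SOX4 stood at -0.30 (SE 0.19, adjusted p = 0.689), with -0.55 without editor library 1 and -0.18 without editor library 2. AFP, the fetal serum protein, had 1 to 7 reads per library.

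Markers of cell types were counted in the same way, and 0 passed. Of 14 fibroblast genes 11 were tested, 8 above 0 and 3 below, with a median of 0.27 (0.18 to 0.33 over the libraries left out), while COL1A2, FAP and THY1 had at most 3 reads. The summed level of the fibroblast list ran from 72.8 to 75.8 CPM in the editor libraries and from 66.4 to 74.2 CPM in GFP libraries. By edgeR, 6 of its 11 tested genes had an unadjusted p under 0.05, beside 8.68% of all tested genes. The matrix genes LUM, POSTN and COL3A1 stood at 0.60 (SE 0.16), 0.88 (SE 0.24) and 0.31 (SE 0.10), and the growth factor receptor gene PDGFRB at 0.77 (SE 0.24). Named for their small p, these genes had groups that did not overlap, as in 14.8% of all tested genes. POSTN and PDGFRB, with the largest of these changes, had only 27 to 85 and 27 to 73 reads per library. The 3 members below 0 were ACTA2, TWIST1 and TWIST2, with ACTA2, a contractile actin gene, at -0.43 on the log2 scale, or -0.29 without editor library 1 (4.46 CPM in editor libraries, against 6.02 CPM in GFP libraries). Of 20 kidney and epithelial genes 13 were tested, 8 above 0 and 5 below, with a median of 0.04 (0.03 to 0.08 over the libraries left out) and a summed level of 1325 to 1355 CPM in editor libraries, against 1519 to 1624 CPM in GFP libraries, ranges that did not overlap. VIM gave most of that sum, with 941 ± 7.81 CPM in editor libraries, against 1191 ± 67.3 CPM in GFP libraries. The other genes of the list went both ways, among them CDH2 (228 and 237 CPM in the editor and GFP libraries) and LRP2 (55.5 and 45.4 CPM). The sum without VIM was not computed. Within that list the epithelial adhesion genes EPCAM and CDH1 stood at 0.75 (SE 0.22) and 0.31 (SE 0.12), the kidney factor PAX2 at 0.30 (SE 0.12), and VIM, the mesenchymal filament gene, at -0.34 (SE 0.10). These were the 4 of its 13 tested genes with an unadjusted p under 0.05 by edgeR, and their groups did not overlap. Of the neuronal genes, STMN2 stood at 0.92 (SE 0.31), NEFH at 0.98 (SE 0.37), INA at 0.38 (SE 0.24) and MAP2 at -0.33 (SE 0.23). NEFH had only 7 to 23 reads per library. NEFL and NEFM, with far more reads, had lower mean levels in the editor libraries (165 and 237 CPM) than in the GFP libraries (171 and 261 CPM). Leaving out GFP library 1 gave 0.21 for INA and -0.56 for MAP2, and leaving out GFP library 2 gave 0.60 for INA and -0.17 for MAP2. The pluripotency list (5 of 12 tested, 2 above 0 and 3 below, median 0.00), the hepatic list (2 of 10 tested, 1 above 0 and 1 below) and the adrenal and neuronal list (9 of 15 tested, 4 above 0 and 5 below, median -0.05) held 0 calls. Over the libraries left out their medians ran from -0.06 to 0.04, from -0.19 to 0.26 and from -0.14 to 0.13 for the pluripotency, hepatic and neuronal lists. The summed hepatic level was 0.356 to 0.615 CPM in editor libraries, against 0.299 to 0.593 CPM in GFP libraries. The part of these markers in the members' values was not tested.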

How the data were processed

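Per the labels' protocols, RNA was taken from HEK293T cells with RNeasy columns and made into polyA libraries. Per the submitters' processing notes, HISAT2, featureCounts and limma were used, with no version named. The sources used here do not give build, annotation release or strand setting. The authors deposited raw counts per gene, and a comparison table of log2 fold changes and p-values whose first 15273 rows were read. The 47425 rows after them repeat counts and were left out. Column names matched the samples' own descriptions.

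Counts were fitted with edgeR 4.0.16 in R 4.3.3 (TMM, default filter, quasi-likelihood F-test, Benjamini-Hochberg over 20511 genes, editor minus GFP). SE is the log2 fold change over the square root of F. CPM use TMM library sizes, and log2 CPM a prior count of 2. RPKM divide CPM by the union of annotated exons. Positions, lengths and 3' UTRs come from GENCODE 29 on GRCh38, matched by gene ID. P-values rest on the spread between these libraries alone. The titles call the libraries biological replicates, yet part of that spread may be technical.

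Other settings tried were DESeq2 1.42.0, limma-voom (limma 3.58.1), scaling by RLE or by library totals, a filter of 50 reads in 3 libraries or none, a replicate block, an adjusted p of 0.01, each library left out, other lengths and transcripts and, added after seeing the data, editor libraries 2 and 3 summed. The fits were tested on simulated counts, where edgeR made 12 false calls among 142 and DESeq2 31 among 171. The fit without the low-count filter was not simulated. The members, lists and tests were chosen with earlier results of these data known. The rule for names gives the members, up to 4 genes per list by smallest p, of which the text shows some, and the 5 most like LIN28B. TRIM71, genes named as near 0 reads, overlapping genes, the fibroblast genes below 0 and marker genes given only by level were added with their values known.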

Additional observations from a re-analysis of the deposited data

How the results depend on the processing

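IGF2, ARID3B and the IGF2BP genes kept their sign in all 14 alternative fits. IGF2 passed only with no low-count filter (0.71), the 1 member called there. LIN28B reversed without editor library 1 and without GFP library 1 (-0.186 to 0.301 over the libraries left out). HMGA1 (-0.161 to 0.0433) and HMGA2 (-0.0885 to 0.138) reversed without GFP library 1. The cause was not tested.

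Over all genes, 5 were called higher and 0 lower, against 178 and 129 without the filter, and 47 and 32 by DESeq2. Limma-voom called 3 higher, an adjusted p of 0.01 left 1, and the calls ran from 1 to 159 higher and 0 to 54 lower over the libraries left out, both highest without editor library 1. The replicate block left 1 higher call and 0 members called. Same-numbered libraries deviated with r of -0.0485, 0.173 and -0.237, so the numbers are not shown to pair them. LIN28A and H19 had too few reads to test.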
